A study of Mus musculus with 50 samples.

Results

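The RNA of heavy polysomes was set against the total RNA of the same cultures in the uninduced state of an inducible mouse fibroblast line. The arrays were those titled as the inducible line without drug and without mifepristone, 3 cultures with a heavy polysome and a total RNA array each, 6 of the 50 arrays of the study. NIH 3T3 cells are an immortalized mouse embryo fibroblast line, and the derivative used here can be made to express eIF4E, the protein that binds the mRNA cap, by adding the steroid mifepristone. These 3 cultures received no mifepristone, no 4Ei-1 and no 4Ei-4 (0 µM of each). The groups set beside them were the inducible line with mifepristone and no drug, the inducible line with mifepristone and 200 µM of the eIF4E inhibitor 4Ei-1, and the non-inducible line with mifepristone, 3 cultures each. The fit also held the inducible line with mifepristone and 10, 50 or 100 µM 4Ei-1 or 200 µM of its analog 4Ei-4, 3 cultures each, and 1 culture of the non-inducible line without mifepristone. RNA was taken at 4 h, and all cells were given cycloheximide, which holds ribosomes on their mRNA, before separation on sucrose gradients. The labels name neither the promoter of the construct nor whether the line is 1 clone, and they do not say that replicates were grown separately, so p-values measure the spread among these cultures. Culture 1 was processed in batch 1 and cultures 2 and 3 in batch 3.

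An mRNA that is translated efficiently is read by several ribosomes at once and sediments with heavy polysomes, while mRNAs that are stored, held back or very short carry few ribosomes and stay in lighter fractions. Nuclear noncoding RNAs and mRNAs made inside mitochondria are not read by cytosolic ribosomes. Each array was scaled to the same distribution, so a difference is relative to the other genes of that array and says nothing of the total amount of RNA on polysomes.

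Of the fibroblast markers with a probe, 14 of 14 were detected on all 6 arrays, and 0 of the listed epithelial, leukocyte, endothelial, adipocyte, muscle and neural markers were. The adipocyte marker Lep was detected on 5 arrays, the epithelial Krt14 on 4, and the muscle Des and leukocyte Lyz2 on 2 each. The rest of these with a probe were detected on 1 or 0. The 6 arrays had mean intensities of 254 to 340 and detected 26.5% to 36% of probes. Levels below are normalized log2 intensities, given for cultures 1, 2 and 3 in that order. Differences are the log2 level of polysome RNA minus that of total RNA within a culture, averaged over the 3 cultures ± SE, from limma fitted over all 25 cultures. The SE pools the spread of all groups. It can be small beside the SD of the 3 cultures, as for Hif1a (SD 2.02, SE 0.58) and Nr2f2 (SD 1.59, SE 0.47). Genes were called at a Benjamini-Hochberg adjusted p below 0.05 among 12644 tested. Eif4e itself was detected on 2 polysome and 0 total RNA arrays, so its difference of 0.72 ± 0.22 (adjusted p = 0.0178) lies near background, and it was not called without culture 1 (adjusted p = 0.111) or without culture 2 (0.105).

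On heavy polysomes 1940 genes were called higher, 15.3% of those tested, and 1535 lower, 12.1%, or 27.5% in all. Of the 3475 called genes, 3417 had the same sign in all 3 cultures. Among the named genes below, differences ran from -3.52 to 2.36, against a median over all genes tested of 0.07. Among the 6358 genes detected on all 6 arrays, 1718 (27%) were higher and 1229 (19.3%) lower. When each fraction was scaled on its own, the split over all genes was 2937 higher and 1216 lower, and the median of all genes was 0.12.

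The 15 largest positive differences, among called genes detected on all 6 arrays, ran from 1.98 to 2.36. Palld (gene ID 72333), palladin, an actin-associated scaffold protein, had 10.78, 8.96 and 9.08 on polysomes against 7.57, 6.93 and 7.25 in total RNA. Its difference was 2.36 ± 0.33 (adjusted p = 1.79e-05), a 5.12-fold excess on polysomes. Samd4b (gene ID 233033), an RNA-binding protein of the Smaug family, had 9.75, 8.5 and 8.35 on polysomes against 6.74, 6.23 and 6.64 in total RNA. For both genes the lowest polysome value lay above the highest total RNA value. Sox4 (gene ID 20677), a transcription factor, had 13.27, 12.19 and 12.16 on polysomes against 10.15, 10.38 and 10.49 in total RNA. Ccnd2 (gene ID 12444), cyclin D2, a driver of G1 progression, had 12.07, 11.23 and 11.08 on polysomes against 9.35, 9.32 and 9.53 in total RNA, a difference of 2.06 ± 0.29 (adjusted p = 2e-05). The fractions did not overlap for either of them, and a second probe of Ccnd2 gave 2.07, while another, detected on 3 arrays, gave -1.22. Ddx6 (gene ID 13209), an RNA helicase of translational repression, had 11.7, 10.81 and 10.7 on polysomes against 8.76, 9.18 and 9.06 in total RNA. Its other probes gave smaller values of the same sign, 0.16, 1.34 and 0.69, and the second probe of Palld gave 1.24.

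The rest of the 15 largest positive differences held the histone deacetylase Hdac4 (2.29), the RNA-binding proteins Rc3h2 (2.22) and Mex3a (2.19), the ubiquitin ligase Trim56 (2.16), the casein kinase 2 catalytic subunit Csnk2a1 (2.01), the nuclear receptor Nr2f2 (1.99) and the histone demethylase Phf2 (1.98). Fam168a (2.13), the Cdc42 exchange factor Fgd1 (2.04) and Dpysl3 (2.01), a protein of neuronal growth cones, completed them. All 15 differences were larger in culture 1 than in the mean of cultures 2 and 3. Across all genes detected on all 6 arrays the differences also spread more in culture 1 (SD 0.99) than in cultures 2 (0.88) and 3 (0.78). Nr2f2 had differences of 3.81, 1.29 and 0.87, and without culture 1 it was no longer called (1.08, adjusted p = 0.126), nor was Trim56 (1.69, adjusted p = 0.0656). A second probe of Nr2f2 gave 0.37. Fgd1 was the most even of the 15, with differences of 2.09, 2.04 and 1.98, although its total RNA level was 7.25 in culture 1 and 4.94 and 5.45 in cultures 2 and 3. All 15 were above 0 in 22 of the 22 other cultures of the study as well.

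**Figure D1:**
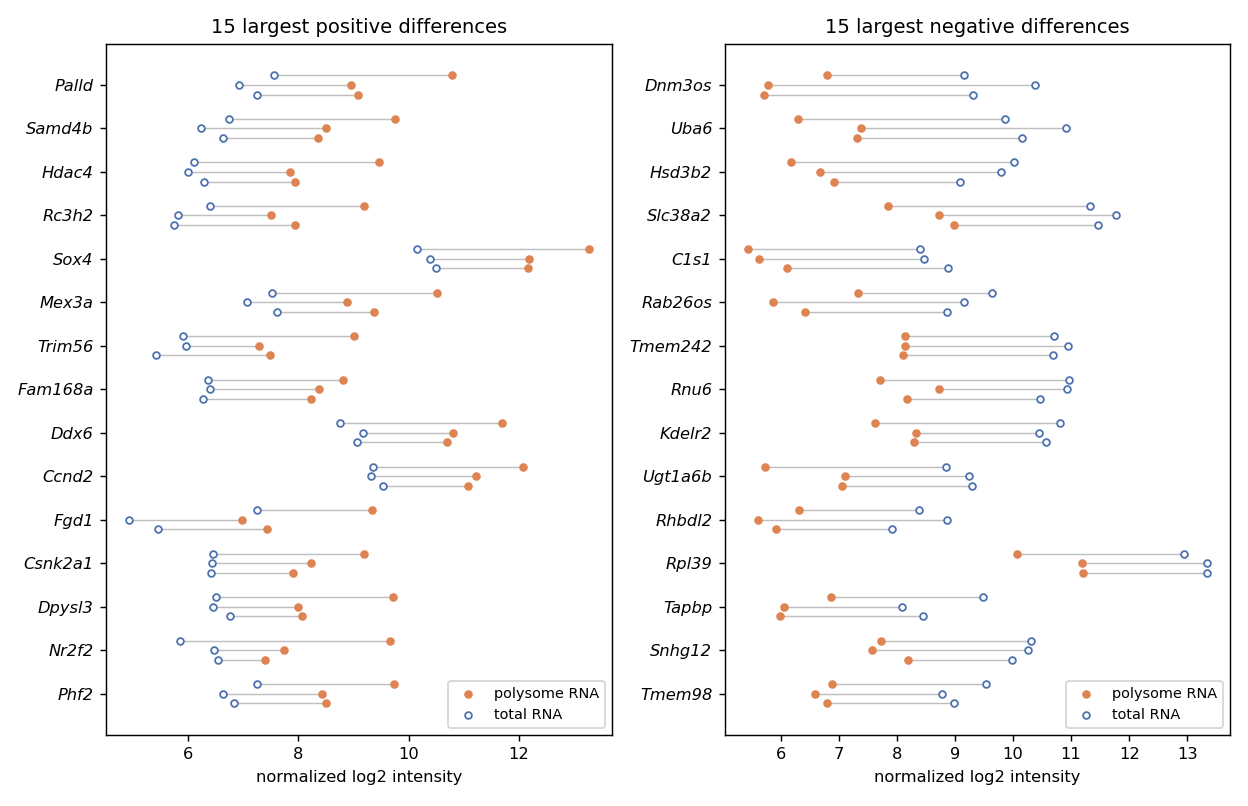
Normalized log2 intensity of the 15 genes with the largest positive and the 15 with the largest negative differences, in each of cultures 1 to 3. Filled points are polysome RNA and open points total RNA, and within every culture the polysome level is the higher one for the first 15 genes and the lower one for the other 15.

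The 15 largest negative differences held 4 RNAs that code for no protein. Dnm3os (gene ID 474332), a long noncoding RNA that carries microRNAs, had 6.8, 5.78 and 5.7 on polysomes against 9.16, 10.37 and 9.31 in total RNA. Its difference was -3.52 ± 0.35 (adjusted p = 3.83e-07), 11.5-fold lower on polysomes. The spliceosomal RNA Rnu6 (gene ID 19862) had 7.7, 8.72 and 8.17 on polysomes against 10.97, 10.93 and 10.47 in total RNA. Snhg12 (gene ID 100039864), a host of small nucleolar RNAs, had 7.73, 7.57 and 8.19 on polysomes against 10.31, 10.26 and 9.99 in total RNA, and the noncoding Rab26os stood at -2.68 ± 0.3. In all 4 the polysome and total RNA arrays did not overlap.

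Among coding genes, Uba6 (gene ID 231380), a ubiquitin-activating enzyme, had 6.3, 7.38 and 7.31 on polysomes against 9.86, 10.91 and 10.15 in total RNA, a difference of -3.31 ± 0.24 (adjusted p = 1.91e-08). Slc38a2 (gene ID 67760), an amino acid transporter, had 7.85, 8.72 and 8.99 on polysomes against 11.32, 11.78 and 11.46 in total RNA, a difference of -3.0 ± 0.18, while its second probe gave -0.77 and another, detected on 4 arrays, -0.14. The fractions were apart on every array for both. The secreted complement protease C1s1 was even between cultures, with differences of -2.96, -2.83 and -2.78. The set also held the retrieval receptor Kdelr2 of the endoplasmic reticulum (ER) and Golgi at -2.53 ± 0.4, the steroid dehydrogenase Hsd3b2 at -3.05 ± 0.42 and the glucuronosyltransferase Ugt1a6b at -2.49 ± 0.42. The membrane proteins Tmem242 (-2.65 ± 0.33) and Tmem98 (-2.35 ± 0.31) and the rhomboid protease Rhbdl2 (-2.45 ± 0.42) were also among them. Tapbp, a chaperone of MHC class I loading, had -2.37 ± 0.48 at the probe used but 0.82 at another, so its direction depends on the probe. Rhbdl2 was below 0 in 20 and Tapbp in 21 of the 22 other cultures, and the other 13 of the 15 lowest in all 22.

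For some genes only a bound can be given, because every array of 1 fraction detected the probe used for the gene and no array of the other did. The bound sets the mean of the bright fraction against the mean, over the arrays of the dim one, of the lowest level detected there or the probe's own level where that was higher. Such genes numbered 38 on the polysome side, 23 of them called, and 79 on the total RNA side, 57 of them called. Choosing genes by detection on these same arrays fixes their direction. The counts called and the p-values are therefore no separate support for it. On the total RNA side were Tmem164, at least 6.07-fold lower on polysomes (adjusted p = 6.32e-08), and Sfpq, a nuclear splicing factor, at least 5.76-fold lower (adjusted p = 7.63e-08). The nuclear paraspeckle RNA Neat1 was at least 4.89-fold lower, Zfp157 at least 4.13-fold lower and Krit1, a protein of endothelial junctions, at least 4.28-fold lower at the probe used. Other probes of Krit1 gave -0.17, 0.03 and -0.82, detected on 5, 4 and 2 of the 6 arrays, so its difference depends on the probe. For Tmem164 too the bound holds for the probe used, as a second one, detected on all 6 arrays, gave -0.76. On the polysome side Zfp395 was at least 2.9-fold higher, the growth cone protein Basp1 at least 2.43-fold, the DNA repair factor Tonsl at least 2.12-fold, the transcription factor Sp4 at least 1.99-fold and Cdyl2 at least 1.97-fold. Without culture 1, Zfp395 (adjusted p = 0.215), Basp1 (0.073), Tonsl (0.375) and Cdyl2 (0.238) were no longer called.

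Transcripts of the mitochondrial genome, which mitochondrial ribosomes read, were under-represented. Of 8 tested, 5 were lower (62.5%) and 0 higher, with a median of -1.64, beside 12.1% lower and 15.3% higher of all genes. COX2, a cytochrome oxidase subunit, had 7.38, 8.36 and 8.38 on polysomes against 9.89, 10.48 and 10.31 in total RNA. ND1, a complex I subunit, had 9.17, 9.58 and 9.87 on polysomes against 11.83, 11.42 and 11.87 in total RNA. Neither gene had overlapping fractions, with differences of -2.19 ± 0.4 and -2.17 ± 0.49, and ATP6 and ND4L stood at -2.32 ± 0.48 and -2.21 ± 0.27. ND5, another complex I subunit, had 0.89, -0.7 and -0.11 in cultures 1 to 3 and did not pass (0.03 ± 0.35). Of 7 nuclear and small nucleolar host RNAs, 5 were lower (71.4%) and 0 higher (median -1.29). Among them were the imprinted Kcnq1ot1 and Snhg5, the second at -1.49 ± 0.38. Kcnq1ot1 was detected on 0 polysome arrays at the probe used and was at least 1.57-fold lower there (adjusted p = 6e-04), and a second probe, detected on 1 array, gave -0.07. Snhg5 was not called without culture 1 (-1.09, adjusted p = 0.106). By annotated gene type, 35 of 163 long noncoding RNAs were lower and 0 higher, beside 1467 lower and 1934 higher of 12378 protein-coding genes.

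The 5′ TOP mRNAs encode ribosomal proteins and several translation factors. They begin with a C followed by a tract of pyrimidines and are known to leave polysomes when growth signals are weak. RefSeq start windows (GRCm38.p6) of members on both sides are shown because the values below set ribosomal proteins apart from most initiation factors. Capitals mark a C followed by 4 or more of C or T that begins within 5 bases of the annotated start, searched on the transcribed strand only. Rpl39 (chrX:37085203-37085227, minus strand) and Rps26 (chr10:128626487-128626511, minus strand) hold such a tract. Rps15 (chr10:80292426-80292450, plus strand), Eef1b2 (chr1:63176826-63176850, plus strand) and Eif4h (chr5:134639390-134639414, minus strand) hold none in this window.
Rpl39: gCCTCTagcgacttcttctaatcgc
Rps26: ccgccggatCCTCTTTCgagtcttg
Rps15: ctcgcgataactgcgcaagcgcagc
Eef1b2: gttccgccggaagtagccgaggcct
Eif4h: cgatcaggcagcgcggcggacagcc

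Ribosomal protein mRNAs were lower on heavy polysomes in 35 of 54 cases (64.8%) and higher in 1 (1.85%). The shares of all genes detected on all 6 arrays were 19.3% lower and 27% higher. The median of the ribosomal protein mRNAs was -0.91 (-0.99, -0.97 and -0.61 in cultures 1 to 3). Rpl39 (gene ID 67248), which encodes a very small protein of the large subunit, had 10.07, 11.18 and 11.2 on polysomes against 12.94, 13.35 and 13.34 in total RNA, a difference of -2.39 ± 0.2 (adjusted p = 5.4e-08). Rps15, of the small subunit, had 11.14, 10.51 and 10.73 on polysomes against 12.98, 12.66 and 12.58 in total RNA. Rps26, also of the small subunit, had 11.86, 11.62 and 11.93 on polysomes against 13.54, 13.2 and 13.15 in total RNA. In all 3 the fractions were apart on every array, and Rps3 followed at -1.28 ± 0.16, with -1.68 at a second probe. The exception was Rpl3, of the large subunit, with 13.83, 14.15 and 14.13 on polysomes against 13.34, 13.67 and 13.7 in total RNA and a difference of 0.47 ± 0.14 (adjusted p = 0.0143). Rpl3 was not called without culture 1 (adjusted p = 0.072) or without culture 2 (0.0724). Ribosomal protein genes have many near-identical pseudogenes, and whether the probes also bind their transcripts was not tested.

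The other 5′ TOP mRNAs were lower in 4 of 20 cases (20%) and higher in 0 (median -0.29). Of all genes detected on all 6 arrays 19.3% were lower and 27% higher. Eef1b2, an exchange factor of elongation, had 10.46, 10.09 and 10.33 on polysomes against 12.1, 11.96 and 11.67 in total RNA, a difference of -1.61 ± 0.18 (adjusted p = 1.04e-06). Eef2, which moves the ribosome along the mRNA, had 9.29, 11.04 and 11.07 on polysomes against 11.95, 11.87 and 11.69 in total RNA. Its polysome level was lowest in culture 1, and its call (-1.37 ± 0.51) was lost without culture 1 (-0.73, adjusted p = 0.49) or without culture 2 (-1.64, adjusted p = 0.0739). The cap-complex factor Eif4b (-2.14 ± 0.51) was not called without culture 1 (-1.39, adjusted p = 0.1), and its second probe, detected on 5 arrays as was the first, gave -0.02. The poly(A)-binding protein Pabpc1 (-0.67 ± 0.19) was not called without culture 1 (adjusted p = 0.182) or without culture 2 (0.0667). The lower calls of this list numbered 1 without culture 1 and 2 without culture 2. Among the other 5′ TOP mRNAs a tract was found in 5 of the 13 that matched a RefSeq start (38.5%). Among ribosomal protein mRNAs it was found in 21 of the 45 that matched (46.7%). The share was 23.4% of the 10224 tested genes that matched and 18.3% of all 32851 RefSeq promoters. The median difference of the ribosomal protein mRNAs was -0.91 with the tract and -0.91 without it. Of the 21 with it 12 were called lower, against 19 of the 24 without it. Whether the annotated starts are those used in these cells was not tested. A gene without a tract here may still have a TOP mRNA, so the split cannot show whether the tract matters.

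Initiation and elongation factors outside the TOP lists leaned the other way, 16 of 33 higher (48.5%) and 0 lower, with a median of 0.57. Eif4h, a cofactor of the eIF4A helicase, had 13.51, 13.7 and 13.36 on polysomes against 12.26, 12.23 and 12.3 in total RNA, a difference of 1.25 ± 0.13 (adjusted p = 6.91e-07). Its fractions did not overlap. The eIF3 subunits Eif3d and Eif3i stood at 0.96 ± 0.14 and 0.94 ± 0.13, and Eif6, which keeps ribosomal subunits apart, at 0.79 ± 0.16, with -0.07 at a second probe detected on 4 arrays. Eif1b (-0.66 ± 0.35) and Eif3c (-0.17 ± 0.36) did not pass. Without culture 2 the counts were 9 higher and 0 lower. Of 19 aminoacyl-tRNA synthetases, which charge tRNAs, 7 were higher (36.8%) and 1 lower (5.26%), with a median of 0.53. Beside both lists, 27% of all genes detected on all 6 arrays were higher and 19.3% lower. The synthetase Wars stood at 0.91 ± 0.19. Other probes of Wars gave 0.29 and 0.71, and one detected on 5 arrays -0.57. The lower one was Cars, at least 1.78-fold lower on polysomes (adjusted p = 0.000197), where no array detected it. Kars, called at 0.66 ± 0.16, had a second probe at -0.92. Without culture 1, 2 synthetases were called higher and 1 lower, and 4 were higher without culture 2.

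**Figure D2:**
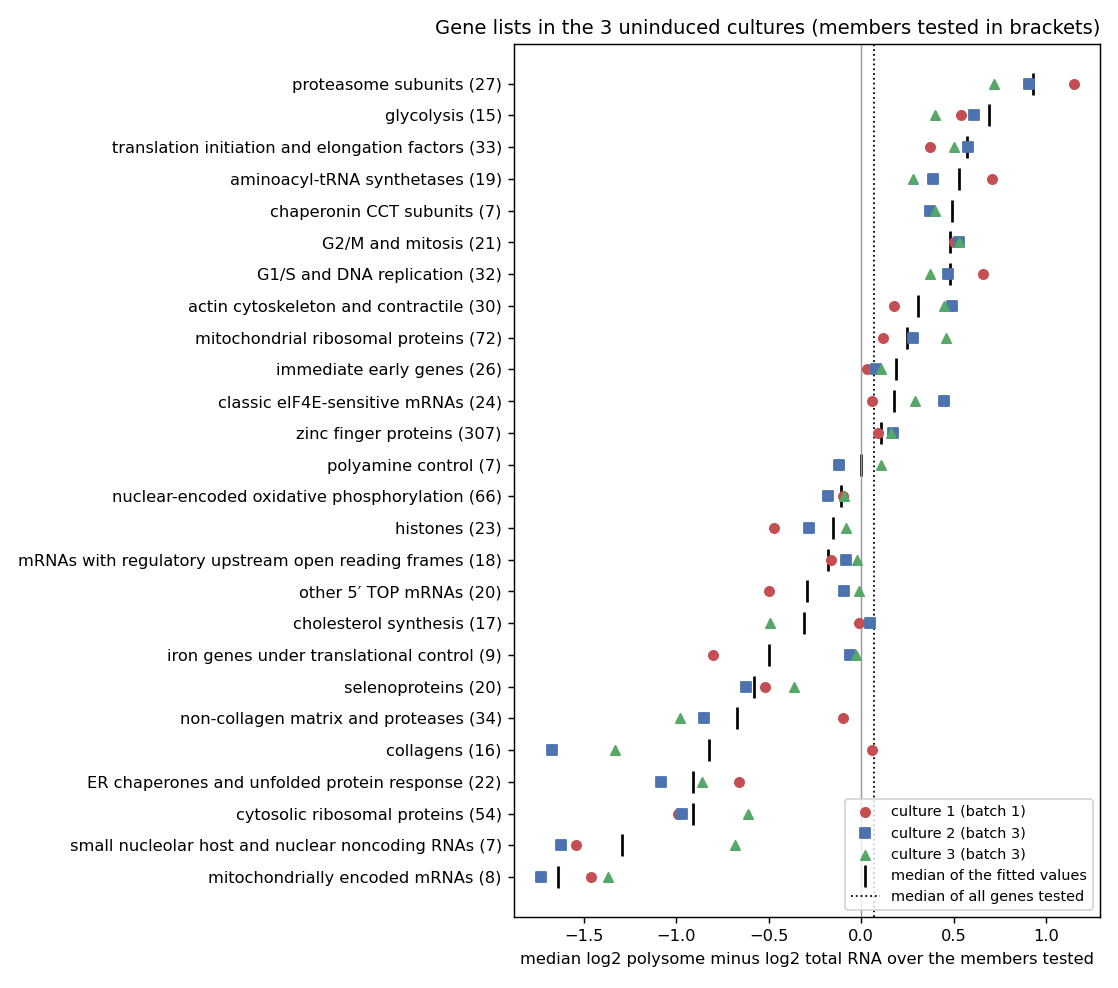
Median difference (log2 polysome minus log2 total RNA) over the tested members of each of 26 gene lists, by culture, sorted by list, with a dotted line for the median of all genes tested (0.07). Proteasome subunits have the highest median of the fitted values (0.93) and mitochondrially encoded mRNAs the lowest (-1.64), and collagens are split between culture 1 (0.06) and cultures 2 and 3 (-1.67 and -1.33).

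Proteasome subunit mRNAs had the highest median of the 26 lists, 0.93, with 20 of 27 higher (74.1%) and 0 lower. All genes detected on all 6 arrays were higher in 27% of cases and lower in 19.3%. The proteasome degrades ubiquitin-tagged proteins. Psma7, a subunit of the core ring, had 12.28, 12.18 and 11.93 on polysomes against 10.81, 10.93 and 10.82 in total RNA, a difference of 1.27 ± 0.15 (adjusted p = 2.33e-06). Psmb4, of the inner rings, had 13.79, 13.83 and 13.59 on polysomes against 12.48, 12.62 and 12.64 in total RNA, and the core subunits Psma2 and Psma5 stood at 1.17 ± 0.15 and 1.09 ± 0.15. The fractions did not overlap for Psma7 or Psmb4. The regulatory particle subunits Psmd2 (-0.54 ± 0.45) and Psmc1 (-0.12 ± 0.25) did not pass. The list median was above 0 in all 25 cultures of the study, between 0.55 and 1.31.

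Glycolytic mRNAs were higher in 7 of 15 cases (46.7%) and lower in 1 (6.67%), with a median of 0.69. All genes detected on all 6 arrays were higher in 27% of cases and lower in 19.3%. Gapdh, a central enzyme of the pathway, had 13.37, 13.19 and 13.03 on polysomes against 12.18, 12.11 and 12.08 in total RNA (1.07 ± 0.14, adjusted p = 8.38e-06), and Tpi1 and Aldoa stood at 1.07 ± 0.18 and 0.87 ± 0.17. The lower member was the glucose transporter Slc2a1, a membrane protein, with 8.89, 8.11 and 8.69 on polysomes against 10.04, 10.27 and 10.49 in total RNA (-1.7 ± 0.26). Both had fractions that did not overlap. Without culture 1, 4 glycolytic mRNAs were called higher, and with the mean of all probes of a gene 4 (list median 0.11). A second probe of Tpi1 gave 0.7 and another, detected on 5 arrays, 0.06. Of 7 subunits of the CCT chaperonin, which folds actin and tubulin, 3 were called higher (42.9%) and 0 lower (median 0.49). Without culture 1 none of the 3 was called, with an adjusted p of 0.0853 for Cct3, 0.0966 for Cct6a and 0.0588 for Cct7. Cct6a was also lost without culture 2 (adjusted p = 0.221) or culture 3 (0.0601), and Cct7 without culture 3 (0.234).

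Actin cytoskeleton mRNAs were higher in 12 of 30 cases (40%) and lower in 2 (6.67%), with a median of 0.31. The shares of all genes detected on all 6 arrays were 27% higher and 19.3% lower. Zyx, zyxin of focal adhesions, had 13.8, 14.23 and 14.15 on polysomes against 12.93, 12.99 and 13.2 in total RNA (1.02 ± 0.15). The lower ones were small actin-binding thymosins, Tmsb10 with 10.69, 10.94 and 11.48 on polysomes against 12.56, 12.75 and 12.91 in total RNA (-1.7 ± 0.21) and Tmsb4x at -1.2 ± 0.23. All 3 had fractions that did not overlap. Actb, cytoplasmic actin, was called at 1.41 ± 0.2, but its other probes gave -2.38, 0.58 and -1.32, and one detected on 5 arrays -2.35, so its direction depends on the probe.

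Nuclear-encoded mitochondrial proteins were mixed. Of 72 mitochondrial ribosomal proteins 20 were higher (27.8%) and 5 lower (6.94%), with a median of 0.25. Of all genes detected on all 6 arrays 27% were higher and 19.3% lower. Mrpl22, of the large subunit, had 9.63, 9.94 and 9.91 on polysomes against 8.28, 9.14 and 8.9 in total RNA (1.05 ± 0.15), and Mrps21, of the small one, had 8.83, 7.99 and 8.75 on polysomes against 10.75, 10.13 and 9.87 in total RNA (-1.73 ± 0.19). Without culture 1 or without culture 2, 3 of them were lower, and with median centring 31 were higher. Of 66 oxidative phosphorylation subunits 11 were higher (16.7%) and 17 lower (25.8%). Their median of -0.11 turned to 0.04 when each fraction was scaled on its own. Uqcrh, a small subunit of complex III, had 11.16, 11.39 and 12 on polysomes against 13.14, 13.42 and 13.26 in total RNA (-1.76 ± 0.2). Ndufs3, a core subunit of complex I, had 11.57, 11.71 and 11.21 on polysomes against 10.44, 10.4 and 10.35 in total RNA (1.1 ± 0.15). The fractions did not overlap for Mrps21, Uqcrh or Ndufs3. Without culture 1 the oxidative phosphorylation counts were 7 higher and 14 lower, 6 and 11 without culture 2, and 7 and 16 without culture 3.

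Of 32 cell cycle mRNAs for G1/S and DNA replication 12 were higher (37.5%) and 0 lower (median 0.48). Among them were the clamp loader subunit Rfc1 at 1.15 ± 0.22 and the helicase subunit Mcm2 at 0.99 ± 0.2. Of 21 for G2/M and mitosis 7 were higher (33.3%) and 0 lower (median 0.48). Beside both lists, 27% of all genes detected on all 6 arrays were higher and 19.3% lower. Cdca8, of the chromosomal passenger complex, had 9.79, 7.23 and 7.71 on polysomes against 8.95, 6.12 and 6.56 in total RNA, a difference of 1.03 ± 0.15 (adjusted p = 1.78e-05). Its levels were higher in culture 1 in both fractions, so the fractions overlapped across cultures while the difference was positive in each. Cdc20, an activator of mitotic exit, stood at 0.9 ± 0.2, with -0.02, 1.15 and 1.47 at its other probes. Without culture 1, 4 G1/S and 2 G2/M mRNAs were called higher and 1 and 0 lower, and the higher counts were 5 and 4 without culture 2.

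Of 24 mRNAs often described as sensitive to eIF4E, 8 were higher (33.3%) and 2 lower (8.33%), with a median of 0.18. Of all genes detected on all 6 arrays, as were 18 of these 24, 27% were higher and 19.3% lower, with a median of 0.21. Ccnd1, cyclin D1, had 11.09, 10.93 and 10.57 on polysomes against 9.58, 9.69 and 9.59 in total RNA, a difference of 1.24 ± 0.17 (adjusted p = 1.44e-05), with 1.65 and 1.21 at its other probes. Ccnd3, cyclin D3, stood at 0.95 ± 0.15, but a second probe gave -0.06. Vegfa, a vascular growth factor, was lower, with 6.26, 8.48 and 8.39 on polysomes against 7.18, 9.29 and 9.16 in total RNA (-0.83 ± 0.21), negative in each culture. The other lower gene, the matrix protease Mmp9, stood at -0.85 ± 0.31 and was not called without culture 2 (adjusted p = 0.27) or without culture 3 (0.253). Hif1a, the hypoxia factor, had differences of -3.11, 0.81 and -0.31 and did not pass. Without culture 1 the counts were 4 higher and 2 lower, 4 and 1 without culture 2, and 5 and 1 without culture 3.

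Of 26 immediate early mRNAs, which growth signals induce, 5 were higher (19.2%) and 4 lower (15.4%), with a median of 0.19, near the 15.3% and 12.1% of all genes. Without culture 1 the higher and lower counts were 2 and 2 and, with culture 2 left out, 3 and 2. Klf4, a transcription factor, had 7.89, 6.95 and 7.28 on polysomes against 5.5, 5.6 and 5.76 in total RNA (1.75 ± 0.29), and Klf6 stood at 1.45 ± 0.2. A second probe of Klf4 gave 0.92 and another, detected on 5 arrays, -0.26. The secreted matricellular protein Ccn2 was lower, with 10.53, 9.39 and 9.18 on polysomes against 11.42, 10.48 and 10.3 in total RNA (-1.04 ± 0.2), as was the mRNA decay factor Zfp36 (-0.76 ± 0.16). Of 307 zinc finger proteins by symbol, 38 were higher (12.4%) and 6 lower (1.95%), with a median of 0.11, against the same shares of all genes. The counts were 12 higher and 3 lower without culture 1 and 21 higher without culture 2. Zbtb7a, a transcriptional repressor, had 9.13, 8.54 and 8.41 on polysomes against 6.4, 6.71 and 7.27 in total RNA (1.9 ± 0.32). Zfp703 stood at 1.22 ± 0.2.

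Upstream open reading frames lower the reading of the main frame of some stress mRNAs. Of 18 such mRNAs 2 were higher (11.1%) and 3 lower (16.7%), near the 15.3% and 12.1% of all genes. The list median of -0.18 turned to 0.06 with median centring, to 0.18 when each fraction was scaled on its own and to 0.01 without culture 2. Ddit3, the stress factor CHOP, had 8.32, 7.92 and 8.95 on polysomes against 9.64, 9.38 and 9.27 in total RNA (-1.03 ± 0.23). Trib3, a pseudokinase of the same response, had 7.54, 6.27 and 7.85 on polysomes against 6.66, 5.12 and 6.95 in total RNA (0.97 ± 0.21). The fractions did not overlap for Ddit3, and for Trib3 the difference was positive in each culture. Without culture 1, 1 of the list was called higher and 1 lower.

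Genes of iron handling were lower in 4 of 9 cases (44.4%) and higher in 0 (median -0.5), beside 12.1% and 15.3% of all genes. Detection on all 6 arrays held for 4 of the 9, but not for every lower one. The list was named for translational control, which was not tested for its members. The transferrin receptor Tfrc had 7.41, 6.5 and 6.25 on polysomes against 8.22, 7.91 and 7.89 in total RNA (-1.29 ± 0.28), and the iron exporter Slc40a1 stood at -1.12 ± 0.22. The ferritin light chain Ftl1 had 10.18, 11.96 and 12.71 on polysomes against 11.77, 12.72 and 12.74 in total RNA (-0.79 ± 0.29). Its gap was close to 0 in culture 3, and it was not called without culture 1 (-0.4, adjusted p = 0.511) or without culture 2 (-0.81, adjusted p = 0.135). The iron importer Slc11a2 (-1.03 ± 0.24) was not called without culture 3 (adjusted p = 0.0682).

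Selenoproteins are read through a UGA codon that inserts selenocysteine. Of 20, 9 were lower (45%) and 1 higher (5%), with a median of -0.58, and 5 were lower without culture 1. The shares of all genes detected on all 6 arrays were 19.3% lower and 27% higher. Selenow, a small redox protein, had 8.59, 7.54 and 7.7 on polysomes against 10.23, 10.2 and 10.38 in total RNA, a difference of -2.33 ± 0.24 (adjusted p = 6.91e-07). The higher one was the thioredoxin reductase Txnrd3, with 7.92, 7.63 and 7.17 on polysomes against 6.06, 6.42 and 6.62 in total RNA (1.21 ± 0.2). Both had fractions that did not overlap. Selenof, an ER protein, stood at -2.03 ± 0.47 and was not called without culture 1 (adjusted p = 0.0672). Among 7 polyamine genes 1 was higher (14.3%), the spermidine synthase Srm (0.81 ± 0.19), and 1 lower (14.3%), the antizyme Oaz2 (-0.69 ± 0.2). These shares were near the 15.3% and 12.1% of all genes. Other probes of Srm gave 0.07 and 0.62, and with the mean of all probes of a gene 0 polyamine genes were higher. Oaz2 was not called without culture 1 (adjusted p = 0.168) or culture 2 (0.089). Without culture 1, 2 polyamine genes were higher, and 2 were lower without culture 3. Beside 12.1% lower and 15.3% higher of all genes, 2 of 23 histones were lower (8.7%) and 0 higher (median -0.15). Of these, H2bc12 (-1.01 ± 0.31) was not called without culture 1 (adjusted p = 0.217) or culture 2 (0.063), and H4c8 (-0.92 ± 0.33) not without any one of the 3 (0.211, 0.0936 and 0.0939). Without culture 1 or culture 2, 0 histones were called lower.

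ER chaperones and factors of the unfolded protein response were lower in 15 of 22 cases (68.2%) and higher in 0 (median -0.91). The shares of all genes detected on all 6 arrays were 19.3% lower and 27% higher. Calr, the chaperone calreticulin, had 7.97, 7.03 and 7.44 on polysomes against 8.74, 9.99 and 10.2 in total RNA, a difference of -2.16 ± 0.43 (adjusted p = 0.000555). The disulfide isomerase Pdia4 had 8.51, 7.03 and 7.28 on polysomes against 9.52, 9.59 and 9.77 in total RNA (-2.02 ± 0.37). In both genes the fractions did not overlap, and the gap was narrowest in culture 1, the only one of batch 1. The list median was -0.66, -1.08 and -0.86 in cultures 1 to 3, and without culture 1 11 members were called lower. The count was 8 without culture 2 and 10 without culture 3.

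Matrix proteins and proteases other than collagens were lower in 15 of 34 cases (44.1%) and higher in 0 (median -0.67). All genes detected on all 6 arrays were lower in 19.3% of cases and higher in 27%. The proteoglycan Lum had 6.28, 6.31 and 6.54 on polysomes against 7.47, 8.18 and 8.24 in total RNA (-1.58 ± 0.22), and the metalloprotease inhibitor Timp1 stood at -1.12 ± 0.18. The laminin chain Lamc1 had 8.48, 6.99 and 7.65 on polysomes against 9.64, 9.63 and 10.32 in total RNA (-2.16 ± 0.41). Both Lum and Lamc1 had fractions that did not overlap. Counts moved with single cultures, to 16 lower without culture 1, 6 without culture 2 and 7 without culture 3.

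Collagens were split between the cultures. Of 16 tested, 3 were lower (18.8%) and 0 higher, beside 12.1% and 15.3% of all genes. The list median was 0.06 in culture 1 and -1.67 and -1.33 in cultures 2 and 3. Col5a1, a chain that nucleates fibrils, had 11.46, 8.91 and 9.7 on polysomes against 11.55, 11.69 and 11.83 in total RNA. The basement membrane chain Col4a2 had 10.44, 6.82 and 7.85 on polysomes against 10.51, 9.29 and 9.83 in total RNA. In culture 1 both were nearly as bright on polysomes as in total RNA, and in cultures 2 and 3 they were far below it. Col3a1, a fibrillar chain, was lower in every culture, with 7.19, 7.04 and 7.77 on polysomes against 8.15, 8.82 and 10.08 in total RNA. All 3 calls were lost without culture 2 (adjusted p of 0.0547 for Col3a1, 0.264 for Col5a1 and 0.262 for Col4a2) or without culture 3 (0.0902, 0.135 and 0.148). Without culture 1, 9 of the 16 were called lower.

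**Figure D3:**
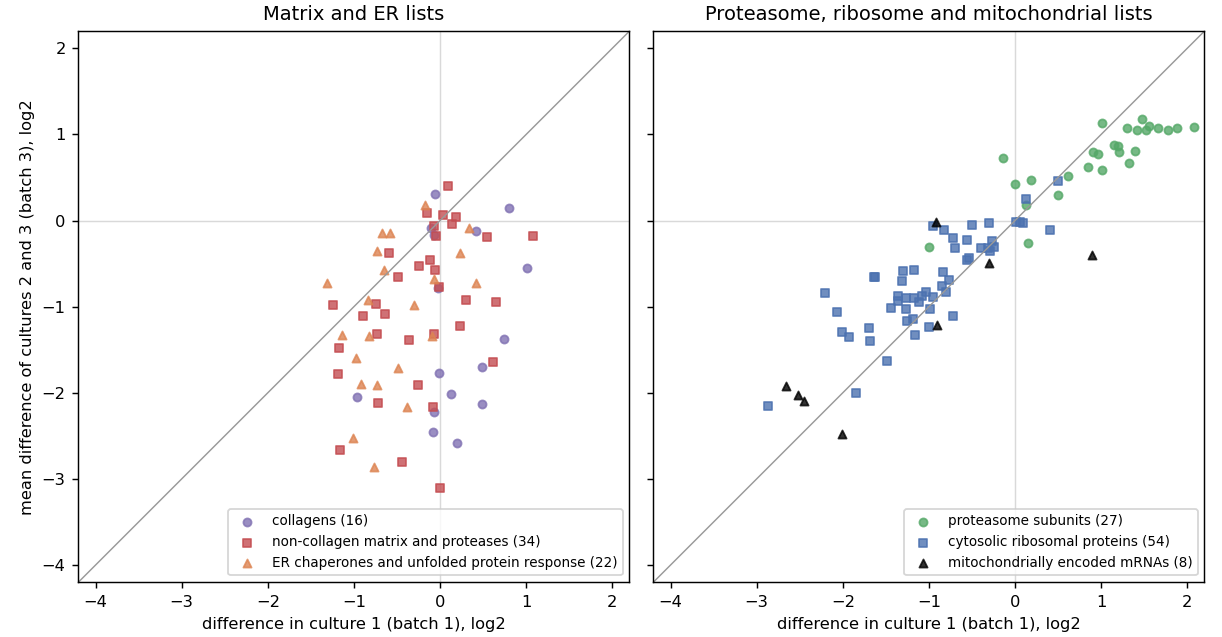
Difference (log2 polysome minus log2 total RNA) of list members in culture 1, batch 1, against their mean difference in cultures 2 and 3, batch 3, a point per tested member. The list medians differ most between the batches for collagens (0.06 in culture 1, -1.67 and -1.33 in cultures 2 and 3) and little for proteasome subunits (1.15, 0.91 and 0.72).

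Across the 6358 genes detected on all 6 arrays, the differences of cultures 2 and 3 correlated at 0.91, and those of culture 1 at 0.69 with culture 2 and 0.61 with culture 3 (Pearson, a description across genes that share arrays). Of the 1535 lower calls, 42 were over 1.5 lower on the log2 scale in the mean of batch 3 than in culture 1. Of the 1940 higher calls, 65 were over 1.5 higher in culture 1 than in that mean. Calls that differed as much in the opposite direction were not counted, such as Eif4b (-3.63 in culture 1 and -1.39 in the mean of batch 3). Collagen medians of the other 4 cultures of batch 3 ranged from -2.49 to -1.7 and the other 4 of batch 1 from -1.33 to 0.88. In batch 4 the inducible line with 4Ei-4 ranged from -0.06 to 0.16 and the non-inducible line from -2.09 to -1.42. The part of the batch in the split of the uninduced cultures was not tested, since batch 1 holds 1 of them.

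**Figure D4:**
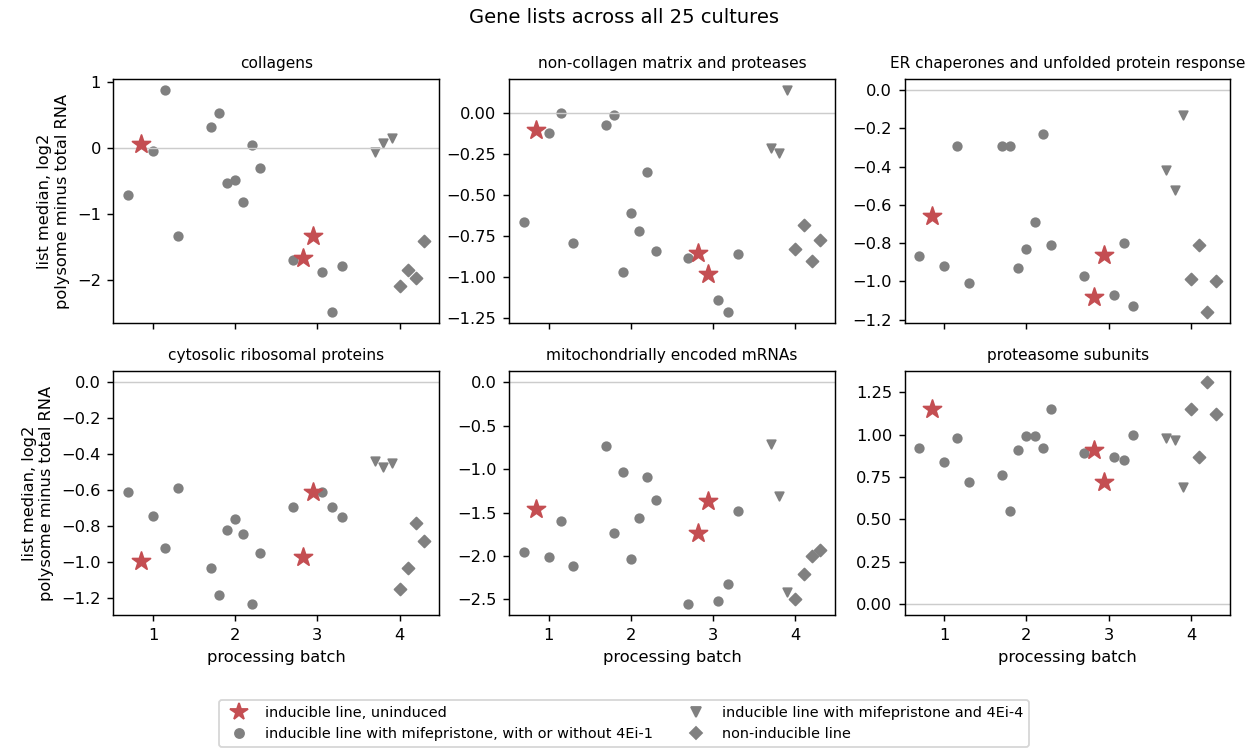
Median difference (log2 polysome minus log2 total RNA) of gene lists in each of the 25 cultures, by processing batch, with stars for the uninduced cultures. The collagen median spans -2.49 to 0.88 over the cultures, and the proteasome median 0.55 to 1.31.

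Grouping genes by the letters that open their symbols, a grouping made after the values were seen, gave 68 families of at least 15 tested members. Symbols in Tmem, for proteins that span membranes, had 71 of 164 lower (43.3%) and 1 higher (median -0.44), against the 12.1% and 15.3% of all genes. Solute carriers (Slc) had 63 of 229 lower (27.5%) and 6 higher (2.62%), with a median of -0.12. The palmitoyltransferases Zdhhc had 6 of 19 lower (31.6%) and 0 higher (median -0.32). Highest by median of the 68 were the Vps genes, many of them for complexes that sort endosomal cargo, with 18 of 32 higher (56.2%) and 1 lower (median 0.61). Helicases named Dhx had 6 of 16 higher (37.5%), symbols in Tbc 8 of 25 (32%) and cyclin-dependent kinases (Cdk) 8 of 23 (34.8%). Of all genes detected on all 6 arrays 27% were higher and 19.3% lower. Without culture 1, 64 Tmem and 53 Slc genes were called lower and 10 Vps genes higher, and 3 Slc genes were higher without culture 2.

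**Figure D5:**
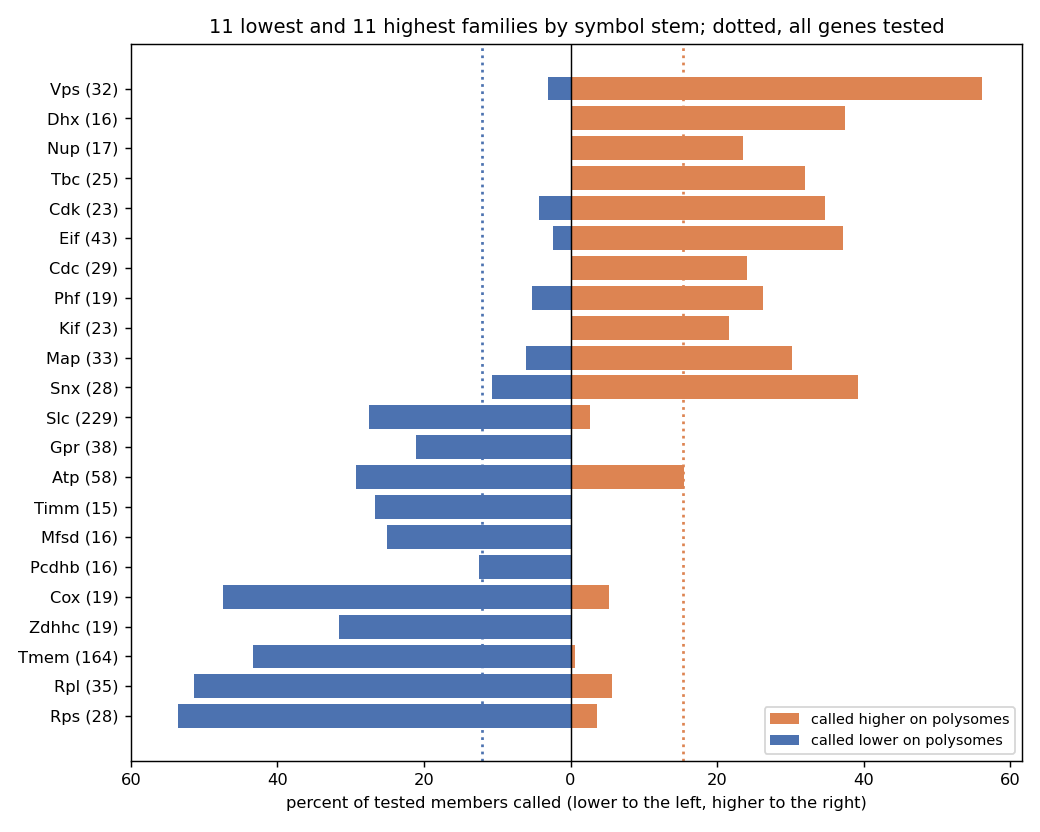
Percent of tested members called lower and higher on polysomes in symbol families with the lowest and the highest medians of the 68, members tested in brackets, with dotted lines for all genes tested (12.1% lower and 15.3% higher). Tmem genes reach 43.3% lower and Vps genes 56.2% higher.

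Cholesterol synthesis and its control had 5 of 17 lower (29.4%) and 4 higher (23.5%), with a median of -0.31, beside 12.1% and 15.3% of all genes. The ER-bound regulator Insig1 had 4.82, 6.52 and 6.08 on polysomes against 6.65, 8.17 and 7.56 in total RNA (-1.65 ± 0.33). The ER enzyme Sqle had 8.08, 8.72 and 8.76 on polysomes against 9.0, 9.78 and 9.77 in total RNA (-1.0 ± 0.16), and Cyp51 and Msmo1 stood at -1.32 ± 0.21 and -1.36 ± 0.24. Insig1 and Sqle were lower in each culture. Lss (1.2 ± 0.31) and Pmvk (0.94 ± 0.28), further enzymes of the pathway, were called higher, but neither was without culture 1 (0.77, adjusted p = 0.138 for Lss and 0.62, adjusted p = 0.214 for Pmvk), when 0 members were higher and 5 lower, and 2 were higher without culture 2.

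The level in total RNA moved with how many genes were called. Among the lowest of 5 groups of genes by level (4.29 to 4.66) 52 were higher and 0 lower, and among the highest (8.58 to 14.8) 649 were higher and 780 lower, with medians of 0.08 and 0.01. At the lowest levels a further drop on polysomes was not detectable over background.

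The last comparisons ask whether the polysome difference of the uninduced cultures departed from that of other groups. Between uninduced cultures and the induced line without drug, limma found 0 genes (0%) past the threshold, 558 of 12644 had an unadjusted p below 0.05, and the median 95% half-width was 0.667. The smallest p belonged to Pcca, a subunit of mitochondrial propionyl-CoA carboxylase, with differences of -1.35 to 0.11 in uninduced cultures against -2.48 to -1.51 in induced cultures (1.57 ± 0.35, adjusted p = 0.814). The ranges did not overlap. For the list of eIF4E-sensitive mRNAs the median was 0.18 in uninduced and 0.06 in induced cultures.

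Between uninduced cultures and 200 µM 4Ei-1 with mifepristone, which share only batch 1, limma again found 0 genes. An unadjusted p below 0.05 was found for 1151, and the median half-width was 0.794. The mitochondrial elongation factor Gfm1 had -0.38 to 0.87 in uninduced cultures against -1.19 to -0.22 with 4Ei-1 (1.86 ± 0.33 with batch as a term, adjusted p = 0.12). The Ran exchange factor Rcc1 had -0.49 to 0.7 in uninduced cultures against 0.25 to 1.56 with 4Ei-1 (-1.6 ± 0.32, adjusted p = 0.129). Both pairs of ranges overlapped. The plain means were 0.05 against -0.61 for Gfm1 and 0.05 against 0.89 for Rcc1, closer than with batch as a term. With the replicate number as a block, 1 gene was called, and with no batch term 6.

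Between uninduced cultures and the non-inducible line with mifepristone, which share no batch, limma found 0 genes, 507 had an unadjusted p below 0.05, and the median half-width was 0.765. Plpp2, a lipid phosphatase, had -1.66 to -1.34 in uninduced cultures against -0.21 to 0.05 in the non-inducible line (-1.37 ± 0.32, adjusted p = 0.667). The ranges did not overlap, and between these groups batch, line and mifepristone cannot be told apart. For Plpp2 the non-inducible culture without mifepristone had -0.11. The inducible cultures with mifepristone and no drug had -1.05, -0.57 and -1.06. Those with 4Ei-4, in batch 4 like the non-inducible line, had -0.9, -0.91 and -0.65. The cause was not tested. With the authors' log2 values 21 genes were called, and with the replicate number as a block 3.

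Between uninduced cultures and the mean of the 8 other groups limma found 0 genes, 288 had an unadjusted p below 0.05, and the median half-width was 0.53. The phospholipase Pla2g6 had the smallest p, with -0.15 to 0.34 in uninduced cultures against 0.23 to 1.9 in the others (-0.85 ± 0.24, adjusted p = 1). A p that misses the threshold does not show that the groups are alike. The median of proteasome subunits was 0.93 in uninduced cultures, 0.94 in the induced line, 0.92 with 200 µM 4Ei-1 and 1.13 in the non-inducible line. For ribosomal proteins it was -0.91 in uninduced cultures, -0.79 in the induced line, -0.77 with 200 µM 4Ei-1 and -1 in the non-inducible line.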

How the data were processed

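Heavy polysome RNA and total RNA were amplified, biotin-labelled and hybridised to Illumina bead arrays, per the labels' protocols. The deposited non-normalized table holds linear intensities of 45281 probes. Beside every intensity it lists a p-value of detection, as named in the file headers and deposited by the authors. The authors also deposited normalized log2 values, used here as an alternative, and the sources used here do not give their normalization. The intensities were background-corrected (normexp, offset 16) and quantile-normalized over 50 arrays on the log2 scale. The number of arrays limits the precision.

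Of the probes, 34885 had 1 gene symbol, 18 had several, and 10378 were not listed. Each of 19057 genes was represented by its brightest probe, and the test covered the 12644 with detection (p below 0.05) on 3 arrays or more. Polysome minus total RNA differences of 25 cultures were fitted with limma 3.58.1 (statmod 1.5.0, R 4.3.3), a term for each of 9 groups, and p-values were adjusted by Benjamini-Hochberg over all genes. Contrasts between groups had processing batch as a fixed term or, where groups share no batch, as a random block (consensus correlation 0.172). The fraction pairs come from the same culture by title, and deviations from the group means correlated at 0.6, 0.61 and 0.36 within cultures 1, 2 and 3. The scripts were tested on simulated data.

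Named genes were the 15 largest differences each way among called genes detected on all 6 arrays with the same sign in all 3 cultures, up to 4 members of each list by smallest p and up to 2 against its majority, the 5 largest bounds each way, Eif4e, and, for each contrast without calls, the 3 smallest p. Predicted loci were passed over. Not every gene so chosen is described. The members, lists and rules were chosen with earlier results of these data known. Start windows were taken from RefSeq (GRCm38.p6), which held 10224 of the tested genes. Alternatives are given in the closing section. Coding length was not analysed here.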

Additional observations from a re-analysis of the deposited data

How the results depend on the processing

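The 3475 calls kept their sign under every alternative tried, except that 3429 did with the mean of all probes of a gene and 3435 with batch 1 alone, and that with only genes detected on all 6 arrays 2947 of them had a value, all of the same sign. The counts of all genes called, higher and lower, stayed within 1.5 times of those reported with no background correction, an offset of 50, median centring, the authors' deposited log2 values, the mean of all probes, no filter on detection, only genes detected on all 6 arrays and batch as a random block. Counts within lists moved more: higher calls came to 3 for G2/M with the authors' values, 31 for mitochondrial ribosomal proteins with median centring, 4 for glycolysis with the mean of all probes, and 5 for eIF4E-sensitive mRNAs under 3 of these. Lower calls among collagens came to 1 with batch as a random block. Scaling each fraction on its own gave 2937 genes called higher. The fit of the 3 uninduced cultures alone gave 2524 calls, 1284 of them higher, and shared 2407 (69.3%) of the 3475. With no replicate block, so that polysome and total RNA arrays were unpaired, 2197 genes were called, 1067 of them higher, and 2190 of the 2197 were among the reported calls. Batch 1 alone, a single uninduced culture assumed to vary like the other groups, gave 2208 calls, 1232 higher and 976 lower. Leaving out 1 culture at a time gave 2367 to 2978 calls, 1204 to 1657 higher and 1103 to 1321 lower. Of 146 named genes that were called, 111, 125 and 137 kept their call without cultures 1, 2 and 3. With the mean of all probes Kars turned to -0.13 (adjusted p = 0.644) and Actb to -0.81 (adjusted p = 0.0172), by limma, since their probes differ. The median of mRNAs with upstream open reading frames turned to 0.06 with median centring and 0.18 with fractions scaled apart, and leaving out 1 culture gave -0.14 to 0.01. The median of oxidative phosphorylation turned to 0.04 with fractions scaled apart. The cause of these turns was not tested. Between groups, the contrast with 200 µM 4Ei-1 gave 6 calls with no batch term and 1 with the replicate block. The contrast with the non-inducible line gave 21 calls with the authors' log2 values, 1 with no batch term and 3 with the replicate block. The other contrasts and alternatives gave 0 calls by limma. Batch as a fixed term was not possible for the non-inducible line, because its batch 4 holds only that line and the 4Ei-4 cultures, and bins of protein length were not run. List counts for left-out cultures and the comparison of shared calls were chosen after seeing the data. Signal near background limits lower calls, of which the lowest of 5 groups by level had 0.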
